A study of Mus musculus with 6 samples.

Results

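The comparison set GFP-positive mouse marrow cells carrying a fusion of the MN1 protein with VP16 (MN1VP16) against GFP-positive marrow cells carrying MN1 alone. It used 4 of the series' 6 arrays, namely the 2 titled MN1VP16 and the 2 titled MN1, and it was described across 17400 autosomal genes of the 18193 genes that the arrays named. A gene was read from its brightest probe set over all 6 arrays, among probe sets annotated to exactly 1 gene.

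Both groups shared one history. Marrow of C57BL/6J donors given 5-fluorouracil (150 mg per kg for 4 days) was grown for 48 h with interleukin 6, interleukin 3 and stem cell factor. It was then infected over 48 h beside irradiated E86 producer cells that shed the retrovirus. The infected cells were transplanted into lethally irradiated syngeneic mice, and 4 weeks later their GFP-positive marrow cells were collected by sorting. The vectors were pSF91-MN1-IRES-GFP and pSF91-MN1VP16-IRES-GFP, so the groups differed in the insert. Another group, Gr1Mac, held Gr1+ CD11b+ marrow cells (2 arrays), and the labels do not say from which mice these came. Its levels stand beside the others as a reference for mature myeloid marrow cells and entered the shared estimate of the spread. The labels give neither age nor sex, and whether each array stands for another mouse is not given.

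MN1 is a transcriptional coregulator, first found at a chromosomal break in a brain tumour, that drives myeloid leukaemia in mice when it is overexpressed in marrow. VP16 is a viral activator protein, and its activation domain raises transcription from the promoters to which it is tethered. Monocytes arise from shared granulocyte-monocyte progenitors under transcription factors such as Irf8 and Klf4, while red cell precursors depend on Klf1, Gfi1b and Tal1.

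The arrays were Affymetrix mouse arrays and held log2 values made by RMA, a method that removes background, gives all arrays one distribution and combines the probes of each set. All levels below are log2 RMA values, so 1 unit is a doubling. Array medians lay between 5.36 and 5.43, and the correlation over genes was 0.980 to 0.990 within a group and 0.942 to 0.969 between MN1 and MN1VP16 arrays. Xist, the noncoding RNA that shuts down one female X chromosome, read 12.36 and 12.59 in MN1 and 5.53 and 5.84 in MN1VP16, while the Y-linked Kdm5d read 3.01 and 3.20 in MN1 and 7.24 and 7.55 in MN1VP16. The sex pattern and the construct therefore cannot be told apart on these 4 arrays. Bright control features averaged 12.13 to 12.54 on both MN1 arrays and MN1VP16 array 1, and 11.34 on MN1VP16 array 2. The only probe set for Mn1 read 3.92 and 4.51 in MN1 and 4.92 and 4.00 in MN1VP16, near the bottom of the scale, and it did not check the labels. Readings up to 5.84 can be background, the level that the brightest Xist probe set reached on arrays high in Y-linked genes. This guide is a high one, since it lies above the array medians. The other Xist probe sets read 4.28 or less on those arrays. The Y-linked genes used as a check read at most 4.05 on arrays high in Xist. Where the mean of the dimmer group lay at or under 5.84, each of its readings under that level was set to it. The fold is then a lower bound, written "at least", and such bounds have no order among themselves.

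MN1VP16 cells had higher levels of monocyte transcription factors, MHC class II chains, immediate early factors and several interferon-inducible genes. They had lower levels of red cell genes, of a set of stem cell regulators that included Hlf, and of Fabp7. By limma with Benjamini-Hochberg adjustment, 673 autosomal genes differed at an adjusted p under 0.05, which was 3.87% of those tested. Of these, 202 were higher in MN1VP16 (1.16%) and 471 lower (2.71%), and 184 and 432 of them differed by at least 2-fold. The median difference, MN1VP16 minus MN1, was 0.03 over all autosomal genes, 1.64 over those called higher and -1.58 over those called lower. Of the called genes, 195 had a dimmer group at or under 5.84, which was 41 of the higher and 154 of the lower genes. By chromosome, the share called ran from 16 of 640 genes on chromosome 14 to 55 of 932 genes on chromosome 8.

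**Figure D1:**
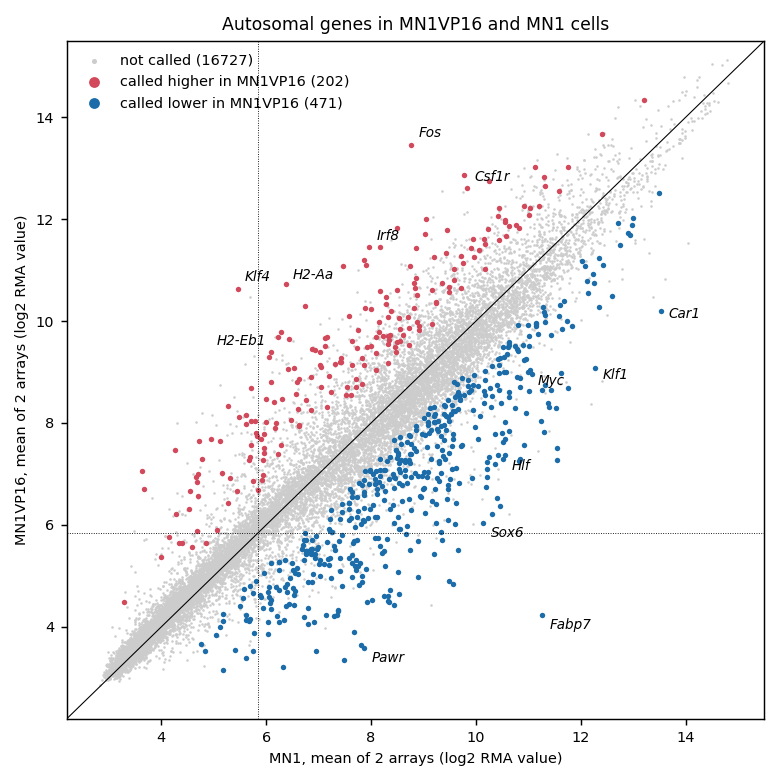
Mean log2 RMA value over 2 MN1 arrays (horizontal) against that over 2 MN1VP16 arrays (vertical) for 17400 autosomal genes, with 202 genes called higher in MN1VP16 in red and 471 called lower in blue. The diagonal marks equal levels, the dotted lines mark 5.84, and Klf4, Fos, H2-Aa and Irf8 lie far above the diagonal while Fabp7 lies farthest below it.

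The counts leaned on single arrays. Without MN1 array 2, 3 genes were higher and 23 lower. The counts were 244 and 210 without MN1 array 1, without MN1VP16 array 1 162 and 321, and without MN1VP16 array 2 71 and 122. With sex as a block, an effect that rested on the Gr1Mac arrays, limma called 0 genes in each direction, and 615 of the 673 called genes had an unadjusted p under 0.05. Their median size was then 1.56 against 1.60, and the median standard error was 0.351 against 0.233. The block also moved list medians given below, to 0.94 from 0.52 for MHC class II, to 1.55 from 1.00 for MHC class I, to -0.48 from -0.94 for nucleolar genes and to -0.25 from -0.48 for the HoxA-Meis1 programme. A further quantile normalization gave 342 higher and 486 lower, so that 41.3% of calls were higher against 30.0%. Of the 81 called genes chosen by the naming rule, 8 were also called without MN1 array 2. These were H2-Aa, H2-Eb1, Fabp7, Plpp1, Pawr, Crhbp, 2610300M13Rik and Hlf. Leaving out MN1 array 1, MN1VP16 array 1 or MN1VP16 array 2 kept 34, 48 and 31 of the 81 calls.

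Klf4, a zinc finger factor of monocyte differentiation, showed the largest called rise. Its levels were 5.36 and 5.56 in MN1, 10.93 and 10.34 in MN1VP16, with 10.79 and 9.85 in Gr1Mac. Both MN1 readings could be background, and the MN1VP16 readings lay at the level of mature myeloid cells. The rise was 5.18 ± 0.35 (SE), at least 27.9-fold (limma adjusted p = 0.00644). Leaving out MN1 array 2 moved its adjusted p to 0.0518, just past the threshold. A second Klf4 probe set rose as well, by 3.17.

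Irf8, the interferon regulatory factor that steers progenitors to monocytes and dendritic cells, read 7.98 and 7.96 in MN1 and 11.84 and 11.08 in MN1VP16. Gr1Mac array 1 stood at 11.04 and array 2 at 9.02. The MN1 arrays were nearly equal and lay well below both MN1VP16 arrays. Irf8 was 11.2-fold higher in MN1VP16 (95% interval 3.81 to 33.2), with an adjusted p of 0.0465 that lay close to the threshold. It was not called without any single one of the 4 arrays (adjusted p = 0.0966 to 0.257). The spread of the Gr1Mac arrays entered that p, and on the 4 arrays alone it was 0.0440. A second Irf8 probe set had a difference of 3.08 that was not called (adjusted p = 0.0710 over all probe sets). Among the 8 interferon regulatory factors measured, a family chosen after its values were seen, Irf8 was the 1 called. Irf5, Irf1 and Irf4 had differences of 2.05, 1.62 and 1.60, with adjusted p of 0.137, 0.115 and 0.265, and Irf3 a difference of -0.29.

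H2-Aa, the alpha chain of the class II molecule I-A that presents peptides to helper T cells, read 6.54 and 6.20 in MN1 and 10.94 and 10.51 in MN1VP16. Its Gr1Mac readings were 10.72 and 10.81, so MN1VP16 and Gr1Mac readings overlapped and both MN1 readings lay far below them. The rise was 4.35 ± 0.21 (SE), or 20.4-fold (95% interval 14.2 to 29.3, adjusted p = 0.00400). The other 3 probe sets of H2-Aa were also called higher, by 3.57, 2.32 and 2.22. All 4 carry the maker's mark for shared sequence, so they may not read this chain alone. The call held without each of the 4 arrays in turn, at adjusted p between 0.00448 and 0.0419.

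Fabp7, a fatty acid-binding protein known from the brain, showed the largest called fall. Its levels were 10.97 and 11.55 in MN1, 4.83 and 3.64 in MN1VP16, with 3.77 and 3.98 in Gr1Mac. Its transcript was bright on both MN1 arrays and at background on the other 4. The fall was at least 43.0-fold (adjusted p = 0.00409, and 0.00371 to 0.0419 without each of the 4 arrays).

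**Figure D2:**
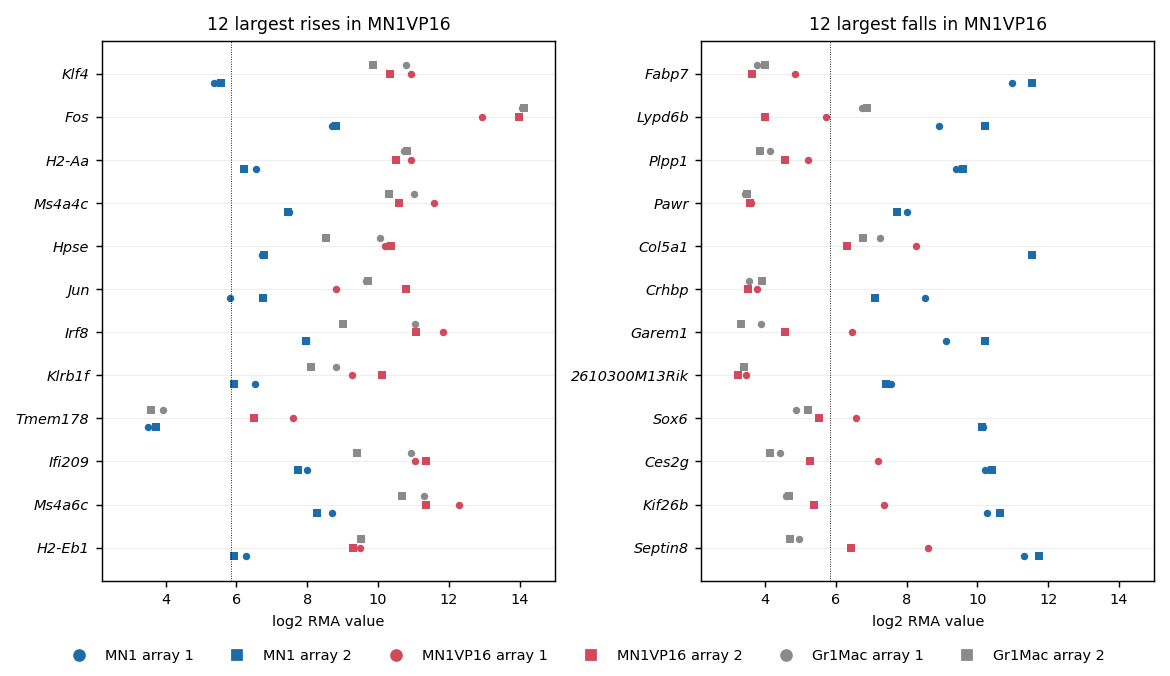
Log2 RMA value (horizontal) on each of the 6 arrays for the 12 genes with the largest called rise and the 12 with the largest called fall in MN1VP16, with MN1 in blue, MN1VP16 in red and Gr1Mac in grey. Circles are array 1, squares array 2 and the dotted line is 5.84, and Klf4 and Fabp7 show the widest gaps between MN1 and MN1VP16.

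In the MHC class II list, to which H2-Aa belongs, 5 of 21 measured members rose and 0 fell, with a median of 0.52 against 0.03 over all autosomal genes. H2-Eb1, the beta chain of I-E, read 6.26 and 5.92 in MN1 and 9.49 and 9.28 in MN1VP16, a 9.82-fold rise (95% interval 7.20 to 13.4, adjusted p = 0.00400). Cd74, the invariant chain that guides class II molecules through the cell, read 6.92 and 5.95 against 9.68 and 9.60, a 9.23-fold rise. The I-A beta chain H2-Ab1 read 7.88 and 7.96 against 9.73 and 9.23, 2.96-fold higher. Ctss, the cathepsin that trims the invariant chain, went from 9.79 and 9.75 to 13.62 and 12.11, an 8.58-fold rise. No reading of these genes overlapped between MN1 and MN1VP16, a state that 30.4% of autosomal genes reached upwards and 29.4% downwards, and in Gr1Mac H2-Eb1 read 9.53 and 9.52 and Cd74 9.53 and 9.83. Family members of the H2 locus are alike in sequence, so probe sets of one chain may take up signal from another. The probe sets used for H2-Ab1 and for the class I chain H2-D1 also carry the mark for shared sequence.

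The regulators and helpers of the class II pathway did not pass the threshold. Ciita, the master coactivator of class II genes, read 3.75 and 4.25 in MN1 and 4.57 and 4.46 in MN1VP16, all under 5.84. Rfx5, which binds class II promoters, had a difference of -0.58 (adjusted p = 0.129), and Nfya, Nfyb and Nfyc had differences between -0.26 and -0.05. H2-DMa, which loads peptides, differed by 0.47 (adjusted p = 0.641). H2-Oa and H2-Ob, which restrain that loading, differed by -0.25 and -1.01 (adjusted p = 0.812 and 0.174). The number of members called was 2 without MN1 array 2, 3 without MN1 array 1, and 5 without either MN1VP16 array.

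Sequences upstream of the transcription start are shown for H2-Aa, H2-Eb1 and Irf8, which rose, and for Klf1, which fell. They were chosen because each holds the Y box that is known from class II promoters. A second start of Irf8, not shown, had none of the searched motifs. Each run gives 250 bases before a RefSeq start (GRCm38.p6), read 5′ to 3′ on the strand of the gene, with matches to the searched motifs in capitals. In H2-Aa the first match is a CRE and the second the Y box, which begins 51 bases before the start. In Klf1 the Y box lies on the opposite strand.
H2-Aa, chr17:34287824-34288073, minus strand: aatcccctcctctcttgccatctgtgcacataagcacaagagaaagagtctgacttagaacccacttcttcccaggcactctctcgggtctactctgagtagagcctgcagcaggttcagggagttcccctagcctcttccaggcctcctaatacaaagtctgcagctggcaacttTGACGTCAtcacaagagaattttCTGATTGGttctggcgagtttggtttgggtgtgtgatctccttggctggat
H2-Eb1, chr17:34305617-34305866, plus strand: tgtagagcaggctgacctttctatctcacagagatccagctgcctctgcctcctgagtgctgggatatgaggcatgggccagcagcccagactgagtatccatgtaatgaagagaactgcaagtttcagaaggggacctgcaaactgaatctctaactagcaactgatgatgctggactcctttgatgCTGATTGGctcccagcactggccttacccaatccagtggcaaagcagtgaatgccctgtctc
Irf8, chr8:120736108-120736357, plus strand: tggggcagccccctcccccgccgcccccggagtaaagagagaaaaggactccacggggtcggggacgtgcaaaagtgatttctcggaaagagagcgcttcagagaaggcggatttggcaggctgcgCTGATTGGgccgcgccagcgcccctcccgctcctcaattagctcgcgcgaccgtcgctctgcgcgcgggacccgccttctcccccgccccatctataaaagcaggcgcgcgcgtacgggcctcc
Klf1, chr8:84901732-84901981, plus strand: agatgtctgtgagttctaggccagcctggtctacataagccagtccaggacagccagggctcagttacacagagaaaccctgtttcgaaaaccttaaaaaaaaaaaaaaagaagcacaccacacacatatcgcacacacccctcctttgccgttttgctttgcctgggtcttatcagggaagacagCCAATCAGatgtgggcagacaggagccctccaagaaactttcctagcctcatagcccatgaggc

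The motifs searched, on both strands, were the Y box CTGATTGG, the CRE TGACGTCA, the AP-1 site TGANTCA, the ISRE core (GAAA, any 2 bases, GAAA), the ETS-IRF composite (GGAA, any 2 bases, GAAA), the PU.1 site GAGGAAGT and the CACCC box CCACACCC, where N is any base. The ISRE core and the composite can overlap. Shares are given over all 32851 promoters of the table, over the 17347 of autosomal genes tested, over the 200 of genes called higher and over the 461 of genes called lower, in that order. A gene can count with several promoters, and these came from 27025, 13831, 156 and 370 genes. The Y box occurred in 3.83%, 4.72%, 5.00% and 6.94%. The ISRE core, bound by interferon regulatory factors and their partners, occurred in 2.98%, 2.64%, 6.00% and 3.04%. The AP-1 site occurred in 6.75%, 5.55%, 8.50% and 3.69%. The CACCC box, read by Krüppel-like factors, occurred in 3.20%, 3.53%, 4.50% and 3.47%. The CRE occurred in 1.55%, 2.17%, 2.00% and 1.95%. The PU.1 site occurred in 2.44%, 2.33%, 2.00% and 1.30%, and the composite in 2.30%, 1.99%, 2.00% and 1.08%. The shares among genes called higher rest on 4 to 17 promoters a motif, and no difference between shares was tested. A match is a description of letters, and it shows neither binding nor a cause. The ISRE core is shown for Ctss and for B2m, the light chain of MHC class I, both of which rose.
Ctss, chr3:95526536-95526785, plus strand: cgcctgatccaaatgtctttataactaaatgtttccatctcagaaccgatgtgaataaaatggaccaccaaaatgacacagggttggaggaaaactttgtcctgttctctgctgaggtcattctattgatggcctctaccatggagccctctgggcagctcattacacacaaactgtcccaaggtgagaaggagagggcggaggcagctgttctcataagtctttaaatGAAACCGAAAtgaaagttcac
B2m, chr2:122147437-122147686, plus strand: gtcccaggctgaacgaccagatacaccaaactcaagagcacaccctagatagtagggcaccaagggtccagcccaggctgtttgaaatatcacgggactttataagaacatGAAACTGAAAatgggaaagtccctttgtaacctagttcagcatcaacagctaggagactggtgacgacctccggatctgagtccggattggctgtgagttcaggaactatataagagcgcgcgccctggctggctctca

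In the MHC class I list, 4 of 16 members rose and 0 fell, with a median of 1.00. B2m read 13.22 and 13.17 in MN1 and 14.09 and 14.60 in MN1VP16, 2.22-fold higher (adjusted p = 0.0476). Tapbp, the tapasin chaperone that holds class I at the peptide transporter, was 2.23-fold higher, and the class I chains H2-M3 and H2-D1 were 3.38-fold and 2.42-fold higher. The class I activator Nlrc5 read 6.97 and 7.74 in MN1 and 8.74 and 10.11 in MN1VP16, and its difference of 2.07 did not pass (adjusted p = 0.104). None of the 16 class I members was called without either MN1 array or without MN1VP16 array 2, although 7 of them had an unadjusted p under 0.05 by limma in each of those fits.

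**Figure D3:**
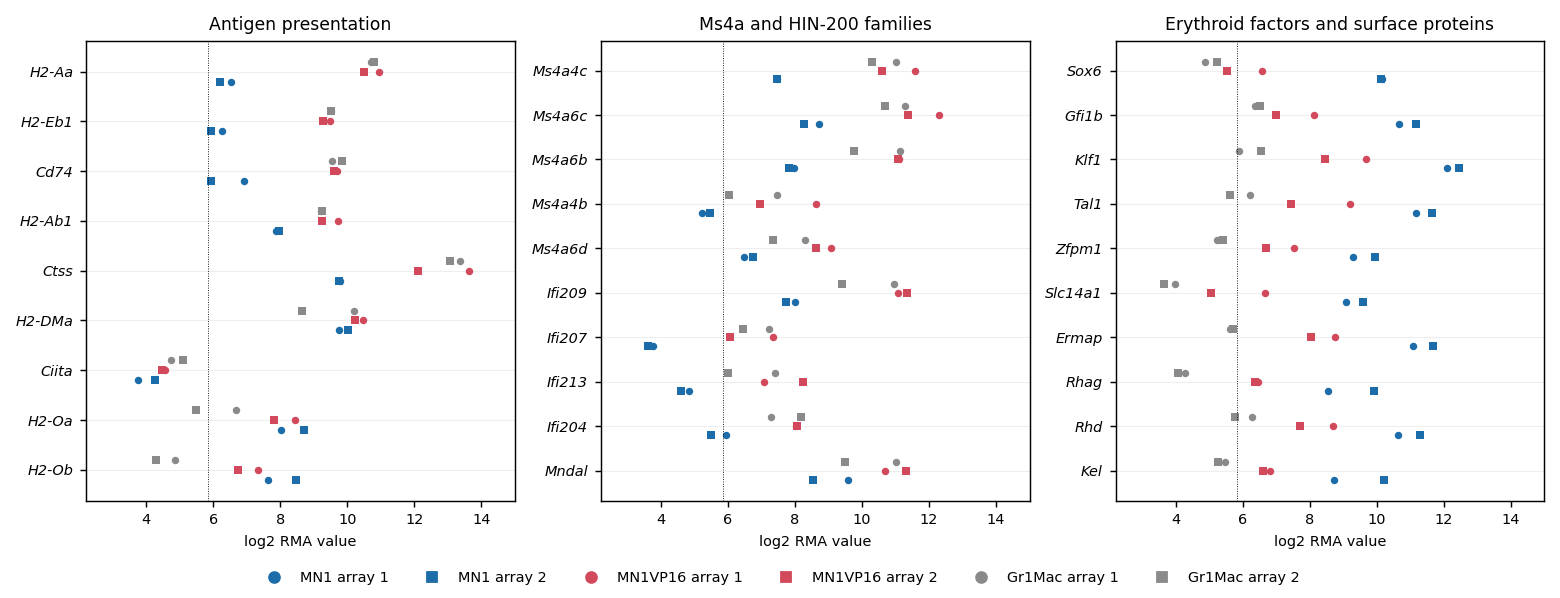
Log2 RMA value (horizontal) on each of the 6 arrays for antigen presentation genes, for members of the Ms4a and HIN-200 families and for red cell factors and surface proteins, with MN1 in blue, MN1VP16 in red and Gr1Mac in grey. Circles are array 1, squares array 2 and the dotted line is 5.84, and the red cell genes form the panel in which MN1 readings lie to the right.

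Transcription factors of myeloid cells followed. Of 39 measured, 10 rose and 1 fell, with a median of 1.28. Beside Klf4, Irf8, Fos and Jun, the risers were Klf2, Id2, Cebpb, Junb, Nr4a1 and Cebpd. Cebpb, which drives macrophage and emergency granulocyte programmes, read 7.46 and 6.41 in MN1 and 9.38 and 9.50 in MN1VP16 (difference 2.50 ± 0.38, SE, adjusted p = 0.0318). Klf2, a factor of quiescent blood cells, read 8.59 and 7.75 against 10.64 and 12.27, 9.74-fold higher (adjusted p = 0.0426). Id2, an inhibitor of E-box factors, was 5.69-fold higher. The member that fell was Gfi1b, a repressor needed for red cells and platelets, which read 10.66 and 11.16 in MN1 and 8.12 or less in MN1VP16 (10.2-fold lower, adjusted p = 0.0204).

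The general myeloid factors Spi1 and Cebpa missed the threshold. Spi1, the PU.1 factor, read 9.82 and 8.99 in MN1 and 11.20 and 10.76 in MN1VP16, a difference of 1.58 (adjusted p = 0.0561). Cebpa, which starts granulocyte development, read 7.35 and 6.54 against 8.14 and 8.47, a difference of 1.36 (adjusted p = 0.0907). Neither overlapped between the groups, a state that 30.4% of autosomal genes reached upwards. In the list of myeloid factors, 0 members were called without MN1 array 2, where 18 had an unadjusted p under 0.05 upwards by limma, and 3 rose without MN1VP16 array 2.

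Krüppel-like factors, a family chosen after its values were seen, moved in both directions. Of 16 measured members, Klf4 and Klf2 rose and Klf1, the red cell member, fell. Klf6 and Klf13, at differences of 1.70 and 1.28, did not pass (adjusted p = 0.114 and 0.0575). Klf9 read 8.87 and 9.38 in MN1 and 6.31 and 6.43 in MN1VP16, also short of the threshold (adjusted p = 0.0571). Klf3 read 9.76 and 10.32 against 10.01 and 10.02, a difference of -0.02.

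Immediate early genes, which cells switch on within minutes of a stimulus, rose in part. In the list of immediate early and heat shock genes, 7 of 32 members rose and 1 fell, with a median of 1.71. Fos read 8.71 and 8.82 in MN1, 12.94 and 13.99 in MN1VP16, with 14.06 and 14.13 in Gr1Mac. It was 25.9-fold higher in MN1VP16 (95% interval 14.7 to 45.8, adjusted p = 0.00662, and 0.0553 without MN1 array 2). Jun, its AP-1 partner, read 5.81 and 6.75 against 8.81 and 10.78, an 11.4-fold rise at an adjusted p of 0.0468. It was called in 1 of the 4 fits that leave out an array, the one without MN1VP16 array 1 (adjusted p = 0.00968), and not without MN1 array 1 (0.130), MN1 array 2 (0.200) or MN1VP16 array 2 (0.0644). Junb, Nr4a1, Fosl2, Rgs2 and Ier5 also rose, Ier5 by 2.24 ± 0.31 (SE). Hspd1, the mitochondrial chaperonin, fell by 1.23.

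Some genes of this list were high on MN1VP16 array 2 alone. Fosb read 4.59 and 4.38 in MN1, 4.74 on MN1VP16 array 1 and 9.68 on array 2. Egr1 read 8.38 and 9.03, then 8.62 and 12.51, and the heat shock gene Hspa1a read 4.93 and 5.58, then 5.55 and 9.97. The summed linear level of the 32 members was 48841 and 47681 in MN1, 54183 and 100625 on MN1VP16 arrays 1 and 2, with 87328 and 86049 in Gr1Mac. Without MN1VP16 array 2 the rises numbered 2 and the median was 0.53, without MN1VP16 array 1 they numbered 13, and without MN1 array 2 none was called although 14 had an unadjusted p under 0.05 upwards by limma. The part of cell handling or of this array in these values was not tested.

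Of 35 measured monocyte and macrophage genes, 9 rose and 0 fell, with a median of 1.82 (1.25 to 2.19 without 1 of the 4 arrays). Csf1r, the receptor for the macrophage growth factor, read 9.98 and 9.67 in MN1, 12.88 and 12.34 in MN1VP16, with 13.18 and 12.60 in Gr1Mac, 6.88-fold higher in MN1VP16 (adjusted p = 0.0175). Ly86, which pairs with the Toll-like protein Cd180, read 9.23 and 8.85 against 12.24 and 11.78, 7.84-fold higher (adjusted p = 0.0431). Ccr2, which draws monocytes out of marrow, read 7.81 and 7.94 against 10.23 and 10.30, 5.24-fold higher. F13a1, a coagulation factor chain of monocytes, rose by 2.51. Klf4, Ctss, Ms4a6c, Ms4a6d and Nr4a1 were the other members that rose.

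Other monocyte genes were not called. Adgre1, which encodes F4/80, read 7.64 and 7.09 in MN1 and 10.51 and 9.18 in MN1VP16 (difference 2.48, adjusted p = 0.0521). Cd14, the lipopolysaccharide coreceptor, had a difference of 2.85 (adjusted p = 0.0555), and the chemokine Ccl9 one of 1.96 (adjusted p = 0.0800). Vcan, a matrix proteoglycan, read 5.00 and 4.92 in MN1 and 10.11 and 6.21 in MN1VP16, so its difference rested on array 1. Marco, a marker of tissue macrophages, read 5.01 or less on every array. Cd163, another, had a difference of -1.70 (limma adjusted p = 0.172). That was the lowest of the 35 members, of which 33 had differences above 0. Monocyte members were called higher in 6 cases without MN1 array 1, 6 without MN1VP16 array 1 and 7 without MN1VP16 array 2. None was without MN1 array 2, although 19 had an unadjusted p under 0.05 upwards by limma. In bulk samples, more cells of a type and more RNA per cell cannot be told apart, here and in every list below.

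Receptors and phagocyte genes showed the same side of the contrast. Chemokine and cytokine receptors rose in 6 of 30 and fell in 1, with a median of 0.97. Tnfrsf1b, a receptor for tumour necrosis factor, read 8.55 and 7.80 in MN1 and 10.84 and 10.34 in MN1VP16, 5.32-fold higher. A second Tnfrsf1b probe set had a difference of 0.51 and was not called (limma adjusted p = 0.198 over all probe sets). Csf1r, Ccr2, Il10ra, Ccr1 and Csf2rb2 were the other receptors that rose, and Epor, the erythropoietin receptor, was the one that fell. Of 33 phagocyte receptor and oxidase genes, 4 rose, with a median of 1.20. Tlr1, a Toll-like receptor for lipoproteins, read 4.45 and 4.06 in MN1 and 7.04 and 7.91 in MN1VP16, at least 3.11-fold higher. Itgam, the CD11b chain on which Gr1Mac cells were sorted, read 7.67 and 6.95, then 9.44 and 8.88, with 10.95 and 10.92 in Gr1Mac. Itgam was 3.61-fold higher in MN1VP16 than in MN1, and the signalling chain Fcer1g and the integrin Itgal were 3.12-fold and 2.94-fold higher.

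Of 31 lysosomal genes, 4 rose and 0 fell, with a median of 0.99. They were Ctss, Ctsb, the sphingolipid activator Psap and the mannosidase Man2b1. Ctsb read 11.20 and 11.40 in MN1 and 12.86 and 12.77 in MN1VP16, 2.86-fold higher (adjusted p = 0.0248). The calls of the receptor, phagocyte and lysosomal lists depended on single arrays. The phagocyte median was 0.69 without MN1 array 2. In that fit none of the 3 lists had a call, with 11, 13 and 14 members at an unadjusted p under 0.05 upwards by limma. The rises numbered 8, 11 and 1 without MN1 array 1, without MN1VP16 array 1 they numbered 2, 3 and 1, and without MN1VP16 array 2 they numbered 1, 1 and 3.

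Of 45 interferon response genes measured, 3 rose and 0 fell (6.67% called, against 3.87% of all autosomal genes). The median was 1.08, and 0.58 without MN1VP16 array 2. The risers were Irf8, Samhd1, a nucleotide phosphatase that restricts retroviruses, and Ifi204, a DNA sensor of the HIN-200 family. Samhd1 read 10.94 and 10.59 in MN1 and 12.02 and 11.73 in MN1VP16, 2.15-fold higher. Ifi204 went from 5.93 and 5.50 to 8.04 and 8.06, at least 4.49-fold higher. Classical responders stayed short of a call, with a difference of 2.91 for Ifit3 (adjusted p = 0.0557), 2.07 for Zbp1 (0.0526) and 2.33 for the chemokine Cxcl9 (0.0578).

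MN1VP16 array 2 was the highest array for several of them. Gbp2, a guanylate-binding protein, read 7.84 and 7.93 in MN1, 9.30 and 11.48 in MN1VP16, with 9.85 and 9.22 in Gr1Mac. Gbp6 read 4.38 and 4.41, then 4.89 and 8.25, and 4.61 and 4.44. The summed linear level of the 45 members was 20788 and 24302 in MN1, 33900 and 59491 in MN1VP16, with 45697 and 32986 in Gr1Mac. Without MN1VP16 array 1, 13 members were called, while without MN1VP16 array 2 none was, and 16 had an unadjusted p under 0.05 by limma. None was called without MN1 array 1 or 2 either, with 12 and 16 at that unadjusted p.

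The HIN-200, Ms4a and Ifitm families were chosen after their values were seen, and Ms4a4c, Ms4a6c and Ifi209 were among the 12 largest called rises. HIN-200 proteins bind DNA and form sensors of foreign DNA, and 4 of 8 measured members rose. Ifi209 read 7.99 and 7.74 in MN1 and 11.06 and 11.35 in MN1VP16, 10.1-fold higher (95% interval 4.50 to 22.8, adjusted p = 0.0286). Ifi213 and Ifi207 were at least 3.51-fold and 1.82-fold higher, while Mndal, at a difference of 1.95, was not called (adjusted p = 0.118). Aim2, the inflammasome sensor, read 5.28 or less on every array, and Ifi203 had a difference of 0.02. The family's rises numbered 2 without MN1VP16 array 1 and 1 without MN1VP16 array 2. Without MN1 array 1 or 2 none was called, with 6 and 4 at an unadjusted p under 0.05 by limma.

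Ms4a proteins cross the membrane several times, and members of this family lie on myeloid, B and mast cells. Of 17 measured, 4 rose, namely Ms4a4c, Ms4a6c, Ms4a6b and Ms4a6d. Ms4a4c read 7.48 and 7.46 in MN1 and 11.59 and 10.59 in MN1VP16, 12.3-fold higher (95% interval 6.43 to 23.4, adjusted p = 0.0176). Ms4a6c read 8.71 and 8.28 against 12.30 and 11.36, 10.1-fold higher, and Ms4a6b was 9.15-fold higher. The B cell member Ms4a1, better known as CD20, had a difference of 1.49 (adjusted p = 0.0571). Ms4a2, the IgE receptor chain of mast cells, read 13.31 and 13.90 in MN1, 12.03 and 9.60 in MN1VP16, with 6.72 and 6.30 in Gr1Mac, a difference of -2.79 (adjusted p = 0.0992). The Ms4a rises numbered 2 without MN1 array 1 or either MN1VP16 array, and without MN1 array 2 none was called, with 6 at an unadjusted p under 0.05 upwards by limma. Neighbouring members of the Ms4a and HIN-200 families are alike in sequence, and the probe sets of Ms4a4c and Ms4a6d carry the maker's mark for shared sequence, so signal may be shared.

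Ifitm proteins sit in membranes and block the entry of viruses. Of 7 members, 4 rose. Ifitm1 read 6.79 and 7.27 in MN1, 8.88 and 9.89 in MN1VP16, with 11.91 and 12.24 in Gr1Mac, 5.12-fold higher in MN1VP16 (adjusted p = 0.0341). Ifitm3, the most studied member, read 11.05 and 11.21 against 12.90 and 13.14, 3.70-fold higher. Ifitm2 was 2.56-fold and Ifitm10 1.95-fold higher. The rises numbered 2 without MN1VP16 array 1, and without any of the other 3 arrays none was called, with 5 at an unadjusted p under 0.05 by limma each time.

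None of 12 primary granule genes was called, and 6 had an unadjusted p under 0.05 upwards by limma. Their median was 1.42, and 0.79 to 2.12 without 1 of the 4 arrays, lowest without MN1VP16 array 2 (0.79) and MN1 array 2 (0.81). Mpo, the myeloperoxidase of azurophil granules, read 13.76 and 12.29 in MN1 and 13.81 and 14.86 in MN1VP16, so the first arrays of the groups differed by less than the second ones. Elane, neutrophil elastase, read 10.96 and 8.57 against 11.08 and 13.12, a difference of 2.33 (adjusted p = 0.216). Secondary and tertiary granule genes had 1 call among 22 (4.55%, against 3.87% of all autosomal genes), with a median of 0.92. It was the vitamin B12 carrier Tcn2 (2.27-fold higher, limma adjusted p = 0.0489). The abundant lysozyme Lyz2 read 14.27 and 13.67 against 14.78 and 14.78, near the top of the scale.

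Mature neutrophil genes rose in 2 of 22, Ifitm1 and the skin and neutrophil protease Asprv1, with a median of 0.91. Asprv1 read 6.92 and 5.92 in MN1, 8.42 and 9.69 in MN1VP16, with 11.42 and 11.75 in Gr1Mac, 6.22-fold higher in MN1VP16. The decoy receptor Il1r2 had a difference of 2.40 (adjusted p = 0.0511). MN1 array 2 was the lowest array for Mpo, Elane, Lyz2, Asprv1 and Il1r2. Without it the medians were 0.39 for secondary and tertiary granule genes and 0.45 for mature neutrophil genes, and without MN1 array 1 the latter was 1.45. When MN1 array 1 was left out, 1 primary, 7 secondary and 5 neutrophil genes were called higher. None was in any of the 3 lists without MN1 array 2, with 2, 4 and 6 at an unadjusted p under 0.05 upwards by limma.

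Of 18 measured erythroid markers, 10 fell and 0 rose, with a median of -2.54. Car1, a red cell carbonic anhydrase, read 13.24 and 13.82 in MN1, 11.20 and 9.20 in MN1VP16, with 4.73 and 5.18 in Gr1Mac, 10.1-fold lower in MN1VP16 (95% interval 3.47 to 29.3, adjusted p = 0.0491). Klf1, the master factor of red cell genes, read 12.11 and 12.44, then 9.68 and 8.46, and 5.90 and 6.53, and it was 9.21-fold lower (adjusted p = 0.0279). The water channel Aqp1 read 11.09 and 11.38, then 8.90 and 7.18, and 4.98 and 4.07. MN1VP16 readings thus lay between MN1 and Gr1Mac for these genes. Epor, Ermap, Rhag, Rhd, Tspan33, Tfrc and Ank1 also fell.

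The summed linear level of the 18 markers was 47702 and 66494 in MN1, 13454 and 6833 in MN1VP16, with 3418 and 2585 in Gr1Mac. In MN1, 17 of the 18 had a group mean over 5.84, and in MN1VP16 16 had. The alpha globin probe set Hba-a1 read 4.27 or less on the MN1 and MN1VP16 arrays, and the membrane anion exchanger Slc4a1 read 10.63 and 12.23 in MN1 and 9.57 and 9.32 in MN1VP16 (adjusted p = 0.133). Erythroid markers thus moved with the contrast, and their part in the falls of other genes was not tested. The falls numbered 8 without MN1 array 1, 10 without MN1VP16 array 1 and 2 without MN1VP16 array 2. None was called without MN1 array 2, where 13 had an unadjusted p under 0.05 downwards by limma.

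Red cell surface proteins, chosen after their values were seen and partly shared with the marker list, fell in 10 of 16. Slc14a1, the urea channel of the Kidd blood group, read 9.09 and 9.58 in MN1 and 6.68 and 5.05 in MN1VP16, 11.1-fold lower (adjusted p = 0.0313). The Rh proteins Rhag and Rhd were 7.10-fold and 6.73-fold lower, the Kell protein Kel 6.73-fold and the Landsteiner-Wiener protein Icam4 7.66-fold. Cd44 and Cd47, which most blood cells carry, differed by 0.91 and -0.44 without a call. The falls numbered 6 without MN1 array 1, 8 without MN1VP16 array 1 and 3 without MN1VP16 array 2, and without MN1 array 2 none was called, with 11 at an unadjusted p under 0.05 downwards by limma.

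Transcription factors of red cell precursors, also chosen after their values were seen, fell in 6 of 14. Sox6, which silences embryonic globin, read 10.15 and 10.13 in MN1, 6.56 and 5.53 in MN1VP16, with 4.88 and 5.22 in Gr1Mac (difference -4.10, adjusted p = 0.0115), and its other 3 probe sets were called lower too. Tal1, which builds the erythroid complex on E-boxes, read 11.16 and 11.64 against 9.19 and 7.43, 8.50-fold lower (adjusted p = 0.0474). Gfi1b, Klf1, Hemgn and the GATA partner Zfpm1 were the others that fell. The complex's adaptors Lmo2 and Ldb1 differed by -0.19 and -0.97 (adjusted p = 0.658 and 0.127), and Gata2 by -1.49 (adjusted p = 0.140). Without MN1 array 1 the falls numbered 4 and without MN1VP16 array 2 they numbered 3, and without MN1 array 2 none was called, with 7 at an unadjusted p under 0.05 downwards by limma.

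Of 10 iron uptake genes, 3 fell and 1 rose. Tfrc, the transferrin receptor, read 11.98 and 12.29 in MN1 and 10.46 and 10.64 in MN1VP16, 2.99-fold lower (adjusted p = 0.0199). Tfr2 and the iron transporter Slc11a2 were 7.39-fold and 4.87-fold lower, and Hfe, which binds Tfrc, was 4.11-fold higher (adjusted p = 0.0476). Of 7 haem synthesis enzymes, Uros and Ppox fell, by 2.38 and 0.86, and the other 5, Alas1 among them, were not called. These gene groups were chosen after their values were seen, and none of their members was called without MN1 array 2.

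Stem and progenitor markers fell in 4 of 24 and rose in 0, with a median of -0.48. Hlf, a factor of stem cell quiescence, read 10.49 and 10.61 in MN1, 7.25 and 7.47 in MN1VP16, with 6.53 and 6.25 in Gr1Mac. Its arrays agreed closely within each group, and it was 9.10-fold lower in MN1VP16 (95% interval 6.71 to 12.3, adjusted p = 0.00400, and 0.00677 to 0.0470 without each of the 4 arrays). Kit, the receptor for stem cell factor, read 11.12 and 11.24 against 9.68 and 9.81, 2.70-fold lower (adjusted p = 0.0408). Msi2, an RNA-binding protein of stem cells, read 10.07 and 10.43 against 7.86 and 6.81, 7.51-fold lower. Msi2 had 8 probe sets, and besides the brightest, 4 others were called lower, all of which fell by 1.61 or more on the log2 scale. The name of the one used ends in _a_at. The brightest one whose name does not end in _x_at, _s_at or _a_at had a difference of 0.00. A further 3 without these endings were among those called lower. Tal1 was the other marker that fell. Without MN1 array 2 the falls numbered 1, which was Hlf, and without MN1VP16 array 2 they numbered 2.

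Other stem cell genes were not called. Cd34, a surface sialomucin of progenitors, read 10.50 and 11.15 in MN1, 11.00 and 9.50 in MN1VP16, with 4.96 and 4.00 in Gr1Mac, and its groups overlapped (adjusted p = 0.622). Mycn read 12.18 and 12.48 against 11.52 and 12.29, with 6.80 and 7.28 in Gr1Mac. Flt3, a cytokine receptor of early progenitors, read 11.45 and 11.18 against 9.76 and 7.43, with 7.23 and 7.32 in Gr1Mac. MN1VP16 array 2 thus lay near the Gr1Mac level, and the difference of -2.72 was not called (adjusted p = 0.0903).

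The HoxA-Meis1 programme had no call among 16 members, with 8 at an unadjusted p under 0.05 downwards by limma and a median of -0.48. Hoxa9, the homeobox factor linked to MN1 leukaemia, read 12.38 and 12.71 in MN1, 9.92 and 11.63 in MN1VP16, with 5.02 and 4.17 in Gr1Mac (difference -1.77, adjusted p = 0.144). Hoxa10 read 9.69 and 10.00 against 5.37 and 8.32, and Hoxa11 9.57 and 9.37 against 5.26 and 7.98, so for these genes MN1VP16 array 1 was the lowest of the 4 arrays. Meis1, the cofactor of Hoxa9, read 7.96 and 8.19 against 8.44 and 6.25 and overlapped, while Meis2 read 10.51 and 10.74 against 7.92 and 4.53, short of a call (adjusted p = 0.0692). For the Meis genes array 2 was the lower one. The 2 MN1VP16 arrays therefore differed from each other in opposite ways for the Hoxa and the Meis genes. Without MN1VP16 array 1, 4 members were called lower, and without MN1VP16 array 2, 3 were.

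Nucleolar and Myc target genes, which build ribosomes and feed growth, fell in 7 of 38, with a median of -0.94. Myc read 11.17 and 10.91 in MN1, 9.22 and 8.86 in MN1VP16, with 7.07 and 6.23 in Gr1Mac, 4.01-fold lower in MN1VP16 (95% interval 2.37 to 6.76, adjusted p = 0.0334). Cad, which starts pyrimidine synthesis, was 3.40-fold lower. Tfrc, Gnl3, Gar1, Nat10 and the chaperonin subunit Cct3 were the others. The abundant nucleolar proteins Npm1 and Ncl differed by -0.98 and -0.99 (adjusted p = 0.0601 and 0.0636). Without MN1 array 1 or MN1VP16 array 1 the falls numbered 1, and without MN1 array 2 or MN1VP16 array 2 none was called, with 19 and 26 at an unadjusted p under 0.05 downwards by limma.

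With all arrays, all 20 cytosolic ribosomal protein genes measured had differences below 0, between -0.94 and -0.12 (median -0.34, none called by limma, 1 at an unadjusted p under 0.05). The 30 oxidative phosphorylation genes had the same median, none called, and 9 at that unadjusted p. With sex as a block both medians turned, to 0.21 and 0.02. That block took its size from the Gr1Mac arrays alone. Their means were 12.64 and 12.10 for the ribosomal genes and 11.44 and 11.04 for the oxidative phosphorylation genes. The turn therefore rests on how Gr1Mac array 2 differed from array 1. The 8 subunits of the CCT chaperonin, a ring that folds actin and tubulin and a group chosen after its values were seen, had differences between -1.26 and -0.67, and Cct3, Cct6a, Cct8 and Cct4 were called. Without any single one of the 4 arrays none of the 8 was called, with 6 to 7 at an unadjusted p under 0.05 by limma.

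Among 47 cell cycle genes 1 was called (2.13%, against 3.87% of all autosomal genes), the kinase inhibitor Cdkn2d. It read 8.63 and 8.10 in MN1 and 9.79 and 9.68 in MN1VP16 (2.59-fold higher, limma adjusted p = 0.0424). The median was -0.27 with all arrays, 0.03 without MN1VP16 array 1 and 0.18 with sex as a block, so it had no settled direction. The proliferation marker Mki67 read 12.55 and 12.42 in MN1 and 11.99 and 12.32 in MN1VP16. Of 22 p53 target and senescence genes, Aen, a nuclease, and the stress sensor Sesn1 fell, 2.56-fold and 2.15-fold. None of 16 Bcl2 family genes was called by limma, and Bcl2 itself differed by 0.76 (adjusted p = 0.0964). In that family 4 upwards and 1 downwards had an unadjusted p under 0.05, as had 3942 of all 17400 autosomal genes. Without MN1 array 2 or MN1VP16 array 2 no member of these 3 lists was called, while without MN1VP16 array 1, 1 cell cycle gene and 4 p53 targets were called lower.

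Metabolic and chromatin lists had few calls, and several shares lay near the 3.87% called over all autosomal genes. They were 4.76% for glycolysis, 4.55% for retinoid signalling, 5.56% for coactivator genes and 5.88% for Polycomb, MLL and chromatin genes. In cholesterol synthesis, Sqle, Idi1 and Lss fell among 18 members, by 1.83, 1.40 and 0.99, with a median of -0.35. In the fatty acid and eicosanoid list, Lpl, the lipoprotein lipase of macrophages, read 6.30 and 5.81 in MN1 and 9.90 and 8.70 in MN1VP16, 9.48-fold higher (adjusted p = 0.0461), and Fabp7 was the 1 that fell. The muscle-type phosphofructokinase Pfkm was the only one of 21 glycolysis genes called, 4.19-fold lower. Among 34 Polycomb, MLL and chromatin genes, the DNA methyltransferase Dnmt3b and the histone demethylase Kdm5b fell, 3.20-fold and 2.32-fold. Coactivators, which include the p300 protein that MN1 is known to work with, changed in 1 of 18, Ncoa1, which read 8.01 and 7.73 against 9.19 and 9.09 (2.42-fold higher, adjusted p = 0.0461). Ncoa1 was also the only call among 22 retinoid signalling genes. Without MN1 array 2, Fabp7 was the only member of these lists still called. Without MN1VP16 array 1, 4 chromatin genes and 1 cholesterol gene were lower.

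The remaining leading genes had no list that joined them. Among the rises, Hpse, the heparanase that cuts heparan sulfate, read 6.71 and 6.78 in MN1 and 10.21 and 10.36 in MN1VP16, 11.6-fold higher (adjusted p = 0.0263). Klrb1f, a lectin-like receptor, was 10.9-fold higher. Tmem178 read 3.51 and 3.73 against 7.61 and 6.49 with 3.92 and 3.59 in Gr1Mac, so of the 3 groups only MN1VP16 exceeded 5.84 (at least 2.32-fold, adjusted p = 0.0176).

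Among the falls, Pawr, a pro-apoptotic regulator, read at least 7.73 on both MN1 arrays, 3.60 and 3.58 in MN1VP16, with 3.42 and 3.47 in Gr1Mac, at least 4.09-fold lower (adjusted p = 0.00231). Plpp1, a lipid phosphatase, read 9.40 and 9.58 against 5.21 and 4.57, at least 12.6-fold lower. Col5a1, a collagen V chain, read 11.53 and 11.55 against 8.25 and 6.30, 19.2-fold lower (adjusted p = 0.0284). Readings in MN1VP16 were at background for Pawr and Plpp1 and above it for Col5a1. Crhbp, which binds corticotropin-releasing hormone, and the unnamed 2610300M13Rik fell at least 3.90-fold and 3.14-fold. Lypd6b and Garem1 fell at least 13.2-fold and 11.4-fold, and Septin8, a filament protein, 16.3-fold. Ces2g and Kif26b had 1 MN1VP16 array each under 5.84 and fell by 4.09 each. MN1VP16 array 1 read higher than array 2 for each of these genes, although both arrays lay at background for Pawr, Crhbp and 2610300M13Rik. Over all 471 genes called lower, array 2 lay below array 1 in 301.

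**Figure D4:**
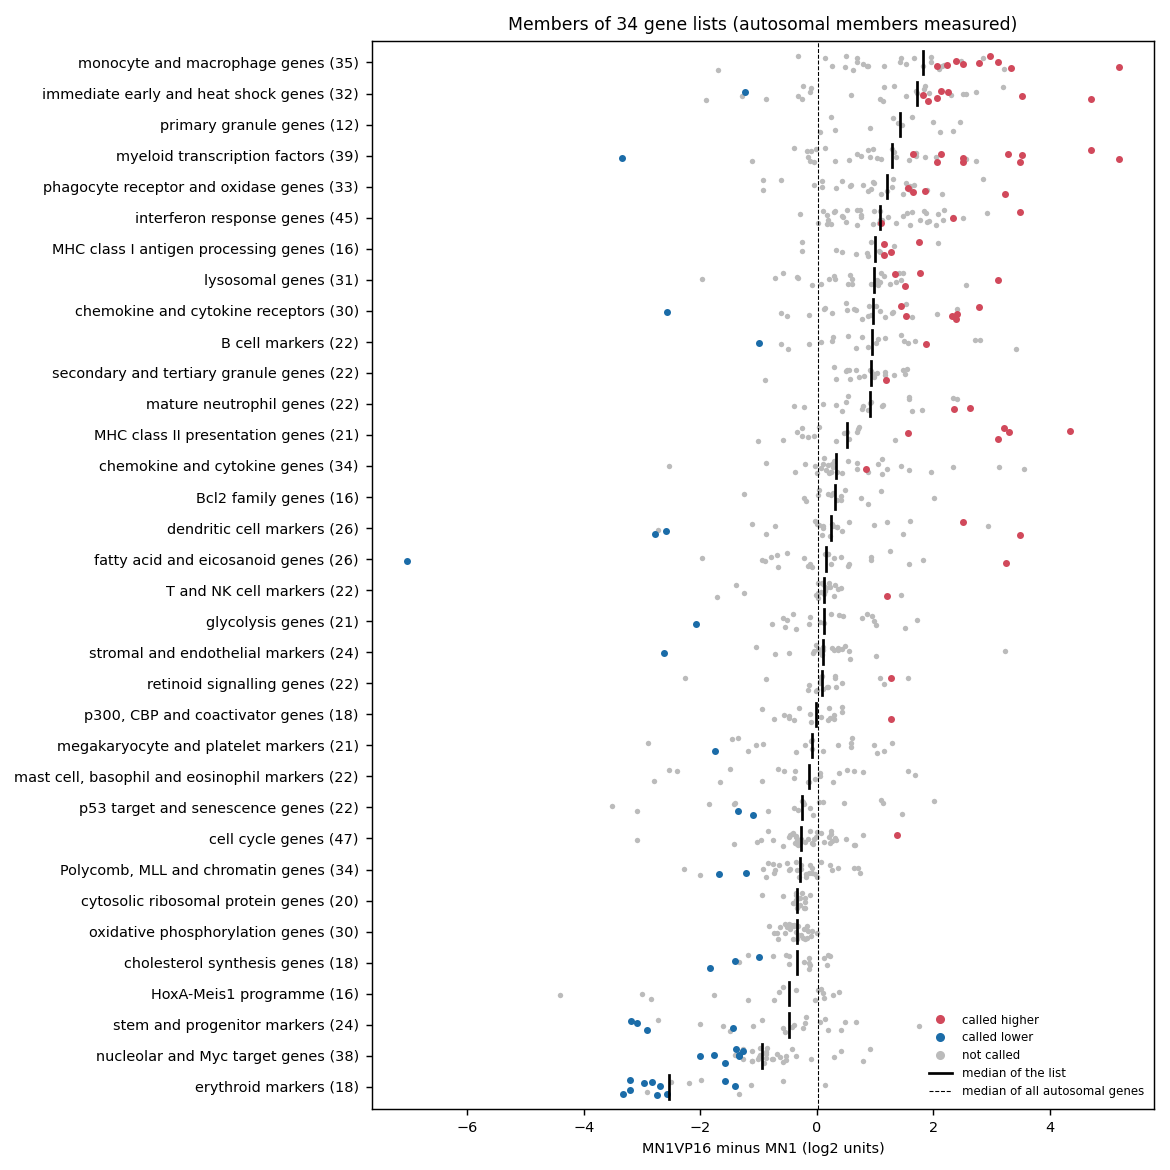
Difference MN1VP16 minus MN1 (log2 units, horizontal) of each measured autosomal member of 34 gene lists, with genes called higher in red, called lower in blue and not called in grey. Black bars are list medians, from 1.82 for monocyte and macrophage genes to -2.54 for erythroid markers, and the dashed line is the median of all autosomal genes, 0.03.

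Markers of other cell types that a GFP sort could hold were also read. Mast cell, basophil and eosinophil markers had no call among 22. By limma 1 upwards and 5 downwards had an unadjusted p under 0.05, as had 3942 of all 17400 autosomal genes. The summed linear levels of the 22 markers were 28642 and 36431 in MN1 and 16590 and 13102 in MN1VP16. The mast cell protease Cpa3 was bright in both groups, at 12.93 and 13.24 against 12.48 and 12.34, and low in Gr1Mac, at 5.59 and 4.08. Without MN1VP16 array 1, 4 members of each of these 2 lists were called lower. Of 21 megakaryocyte and platelet markers, F2rl3, a thrombin receptor, was the only call and fell (4.76%, against 3.87% of all autosomal genes). Its relative F2r read 13.18 and 13.58 in MN1 and 11.58 and 9.37 in MN1VP16 without a call (adjusted p = 0.0732).

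Lymphoid and dendritic lists were near background for many members. Of 22 B cell markers, 9 had an MN1 mean over 5.84 and 15 an MN1VP16 mean, Cd79a rose at least 1.67-fold and Cd24a, which red cells and neutrophils also carry, fell 1.99-fold. Jchain read 5.10 and 4.45 in MN1, 5.92 and 10.47 in MN1VP16, with 9.12 and 6.74 in Gr1Mac, and without MN1VP16 array 1, 7 B cell members were called higher. Klrk1, an NK cell receptor, was the only call among 22 T and NK cell markers (4.55%, against 3.87% of all autosomal genes). Its level lay near 5.84 in MN1VP16 (5.96 and 5.80). Of 26 dendritic cell markers, Irf8 and Id2 rose, and Ccr9 and Ly6d, which mark plasmacytoid and lymphoid precursors, fell at least 4.22-fold and 5.37-fold. The Ccr9 probe set carries the mark for shared sequence. The brightest one whose name does not end in _x_at, _s_at or _a_at read 4.21 or less on every array. That is under 5.84, so that its difference of 0.13 lies within background. One that ends in _a_at had a difference of -1.24, also from readings under 5.84. Of 24 stromal and endothelial markers, the endothelial gene Plvap was the only call and fell (4.17%, against 3.87% of all autosomal genes). The summed level of these markers was 2468 and 1954 in MN1 against 11230 and 2530 in MN1VP16. Of 34 chemokine and cytokine genes, Ccl2 was the only call (2.94%, also near 3.87%). It read 5.13 and 4.98 in MN1 and 5.85 and 5.96 in MN1VP16, close to background. None of the lists of this paragraph had a call without MN1 array 2, with 10 B cell, 2 T and NK, 6 dendritic, 0 stromal and 6 chemokine members at an unadjusted p under 0.05 upwards by limma.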

How the data were processed

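RNA of 6 sorted marrow samples was read on Affymetrix mouse arrays. The authors deposited log2 values made by RMA, per the submitters' processing notes, and its version is not given in the sources used here. The table held 45037 probe sets beside 64 control features. Of these probe sets 34945 named 1 gene, 932 several and 9160 none, and 9010 of the 18193 genes had several probe sets. Array scanner values were not used here, so signal over background is unknown and the number of arrays limits the precision.

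All genes were fitted with limma 3.58.1 (R 4.3.3) on all 6 arrays, with 1 mean per group, moderated variances and Benjamini-Hochberg adjustment over 18193 genes. The script was tested on simulated data. Calls were made below an adjusted p of 0.05, and limma's confidence level was 95%. With 2 arrays against 2, no exact permutation test can reach that threshold. Nothing says that the arrays stem from separate mice, so the p-values speak of array spread alone, part of which may be technical.

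The members and the gene lists were chosen with earlier results of these data known. Always named were Irf8, Klf4, H2-Aa, Fabp7, Mn1, Hoxa9, Meis1, Kit, Cd34, Flt3, Cebpa, Cebpe (not among the genes named by a probe set of its own), Spi1, Myc, Ccl9 and Ly86. Also named were the 12 largest called differences in each direction, the 3 largest called in each direction per list, lists of 5 or fewer calls in full, and genes that check sex. Any other gene was picked with its values in view. The 34 lists held 801 measured autosomal genes.

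Replicate numbers were not shown to pair arrays, so the model had no block. Alternatives were arrays left out, 4 arrays only, blocks, scaling, filters on dim genes, choice of probe set, a variance trend and the genes adjusted over.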

Additional observations from a re-analysis of the deposited data

Results flagged for a closer look

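Probe sets that named no gene or several genes lay outside the comparison by genes. In a fit of all 45037 probe sets, 51 of the 10092 such probe sets were higher in MN1VP16 than in MN1 by limma at an adjusted p under 0.05, and 102 were lower. Both shares lay under those of autosomal genes, of which 1.16% were called higher and 2.71% lower in the fit of genes. These probe sets were singled out only because no comparison above uses them, and they are given without names.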

How the results depend on the processing

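With all arrays 202 genes were higher and 471 lower. Leaving out 1 array gave 3 to 244 higher and 23 to 339 lower genes. A block for the split of the control features gave 71 and 122, the same fit as leaving out MN1VP16 array 2. The 4 arrays alone gave 101 higher genes, as did leaving out either Gr1Mac array. Sex as a block gave 0 and 0 by limma, with 2416 genes at an unadjusted p under 0.05, and a lowest adjusted p of 0.152. A further quantile normalization gave 342 higher genes, and a filter that kept genes whose brightest group reached the median gave 313 of 9708, with fewer genes tested. The median-centred values, the variance trend, the mean of probe sets, the adjustment over autosomal genes and the filter on the dimmest 40% moved neither count by over 1.5 times. Without probe sets whose names end in _x_at, _s_at or _a_at, Msi2 had a difference of 0.00358. It came from the brightest probe set left, although 3 others that were left fell by 2.09 or more. Ccr9 had one of 0.13, from readings under 5.84. The cause was not tested for any of these shifts. The replicate number as a block gave 202 and 315. Same-numbered arrays did not deviate together (r = -0.046, -0.049 and 0.080 over 18193 genes). With 2 arrays a group these values cannot settle whether the arrays were paired.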

Other observations

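Other probe sets of the called genes gave a second reading of the same arrays. Of 673 called genes, 389 had at least 1 further probe set, and 638 of these 729 probe sets differed in the same direction as the one used. Called in the same direction were 174 of them, and 0 were called in the opposite direction by limma over all probe sets. Further probe sets of Jun, Kit and Lpl differed by 2.11, -0.87 and 1.38 without a call. Those of Aen differed by -0.68 to -0.03, also without a call. These probe sets read the same RNA, so they are no further replicates.

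On the X chromosome 6 of 617 genes were called higher in MN1VP16 and 18 lower, while 0 of 9 Y-linked genes were called higher. Of 17400 autosomal genes 202 were called higher (1.16%) and 471 lower (2.71%), and the X-linked shares were close to these. The Gr1Mac arrays also differed in sex pattern, with Xist at 10.44 and 5.83 and Kdm5d at 3.11 and 7.37. Their spread entered the p of genes that follow sex and made such genes hard to call. Kdm5d, for one, had a difference of 4.29 without a call. These counts therefore cannot show how far sex shaped the contrast. The 4 compared arrays differed in Xist and Y-linked levels, and Xist had an adjusted p of 0.0527 by limma, with MN1VP16 and MN1 arrays that did not overlap.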
